A study of Mus musculus with 7 samples.

Results

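The metabotropic glutamate receptor genes Grm5, Grm2, Grm3, Grm4, Grm7 and Grm8 were described in the prefrontal cortex (PFC) of female mice. They were taken as the protein-coding genes with these symbols, which gave 6 of the 55416 genes in the table, and all 6 had enough counts to be tested. Other genes of the family were not analysed here. RNA-seq covered 7 libraries of C57BL/6 wild-type mice whose PFC had been injected with rAAV. The 3 Ctr libraries came from mice given the empty vector, the 2 Ref libraries from mice given the PAXIP1-AS1 reference C allele, and the 2 Alt libraries from mice given the alternative G allele. PAXIP1-AS1 is a human long noncoding RNA, so that both overexpressing groups carried a human transcript on a mouse background. In all groups, Ctr included, the vector held EGFP under the human synapsin promoter, which is active in neurons, and the injected tissue was sequenced as a whole. The age of the mice, the time between injection and tissue collection, and whether a library holds 1 animal are not given in the sources used here, so that p-values measure the spread between these libraries.

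Metabotropic glutamate receptors are G protein-coupled receptors that work as dimers and bind glutamate through a large extracellular domain. Group I receptors, here mGlu5 (Grm5), couple to Gq proteins and phospholipase C and lie mostly at the postsynaptic membrane, where Homer and Shank proteins anchor them. Group II receptors, mGlu2 (Grm2) and mGlu3 (Grm3), and group III receptors, mGlu4 (Grm4), mGlu7 (Grm7) and mGlu8 (Grm8), couple to Gi/o proteins, lower cyclic AMP and dampen transmitter release from nerve terminals. In the cortex mGlu3 and mGlu5 are also made by astrocytes.

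Grm5 (ENSMUSG00000049583.16) lies on the plus strand of chromosome 7 from 87233376 to 87784115, as the deposited table lists it. Grm2 (ENSMUSG00000023192.13) lies on the minus strand of chromosome 9 from 106520294 to 106533281 and is with 13.0 kb the most compact of the 6. Grm3 (ENSMUSG00000003974.7) lies on the minus strand of chromosome 5 from 9535541 to 9775170. Grm4 (ENSMUSG00000063239.18) lies on the minus strand of chromosome 17 from 27641361 to 27740377. Grm7 (ENSMUSG00000056755.14) and Grm8 (ENSMUSG00000024211.16) share chromosome 6, where Grm7 spans 110622542 to 111544191 on the plus strand and Grm8 spans 27275118 to 28135177 on the minus strand, with 922 kb the longest span for Grm7. The reads counted for a gene fall on its exons, whose summed length in the table was 3049 bases for Grm3, 4894 for Grm2, 5886 for Grm7, 5977 for Grm4, 9898 for Grm8 and 10247 for Grm5. The table names no genome build, and none of these 6 spans had the same start and end as in the GRCm38 annotation.

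The windows around the start of Grm2 and Grm3 are shown because these group II genes stood on opposite sides of Ctr in the Alt libraries when measured in counts scaled to library size. Windows of 250 bases before to 50 after a transcript start were taken from RefSeq on GRCm38.p6, where 4 of the 6 genes had at least 1 window. Capitals mark the GC box GGGCGG, the core letters bound by Sp-type factors, searched on both strands.

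Grm2, chr9:106656060-106656359, minus strand: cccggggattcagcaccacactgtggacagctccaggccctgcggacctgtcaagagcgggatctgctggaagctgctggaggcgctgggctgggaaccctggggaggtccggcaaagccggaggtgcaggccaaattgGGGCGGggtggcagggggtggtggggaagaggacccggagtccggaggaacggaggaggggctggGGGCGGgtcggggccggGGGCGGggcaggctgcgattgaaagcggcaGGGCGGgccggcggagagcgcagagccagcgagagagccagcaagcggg
Grm3, chr5:9725303-9725602, minus strand: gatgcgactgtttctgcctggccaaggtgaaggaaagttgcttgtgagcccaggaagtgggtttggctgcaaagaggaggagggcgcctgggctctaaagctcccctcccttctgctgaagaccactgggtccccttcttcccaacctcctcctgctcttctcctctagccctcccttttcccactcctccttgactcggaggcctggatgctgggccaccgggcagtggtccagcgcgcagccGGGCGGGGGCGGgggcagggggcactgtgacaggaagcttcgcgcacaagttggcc

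The Grm2 window held 4 GC boxes and 72% G and C, and the Grm3 window held 2 boxes next to each other and 63.7% G and C. Of all 32851 mouse windows of this length 35.7% held at least 1 GC box, and the median G and C content was 52.7%. Neither window held the E-box CACGTG, present in 7.15% of all windows, or the cyclic AMP response element TGACGTCA, present in 1.79%. These letter matches describe the windows and were not tied to any expression value.

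Grm3 and Grm5 were the most abundant of the 6 transcripts. Levels are given as TPM, a measure of transcript abundance which the authors scaled for gene length and which can therefore be compared between genes. In Ctr, Grm3 had 134 ± 20.5 TPM, Grm5 94.6 ± 12.04, Grm2 37.3 ± 2.13, Grm7 27.1 ± 3.97, Grm4 9.83 ± 3.12 and Grm8 8.05 ± 0.361 (SD, n = 3). Neighbours in this order did not overlap between the 3 Ctr libraries except Grm4 and Grm8, the least abundant pair. Grm4 exceeded Grm8 in every library but Ctr replicate 2, where its TPM was 0.746 of that of Grm8. Within each of the 7 libraries Grm3 stood above Grm5, by a ratio of TPM between 1.36 in Ctr replicate 1 and 1.94 in Alt replicate 1. Between 227 reads, for Grm4 in Ctr replicate 2, and 6935 reads, for Grm5 in Alt replicate 1, lay behind a single value.

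**Figure D1:**
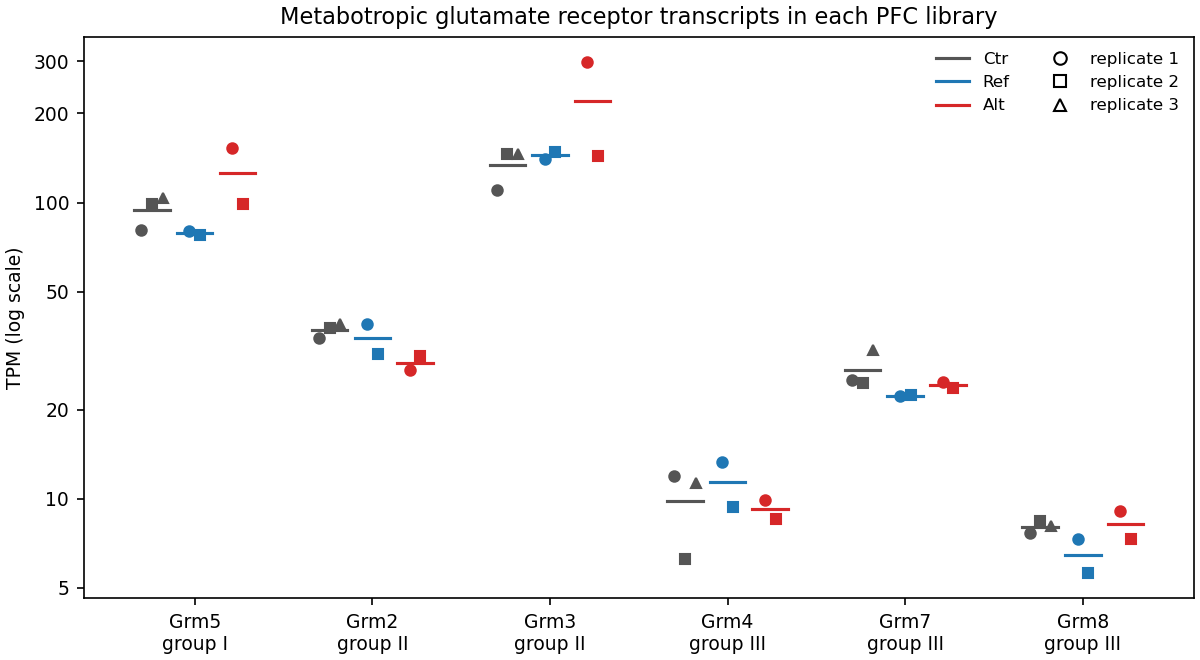
TPM on a log scale for each receptor gene, with 1 point per library, symbols by replicate number and bars at the group means of Ctr (n = 3), Ref (n = 2) and Alt (n = 2). Alt replicate 1 is the highest library for Grm3 at 298 TPM and for Grm5 at 153 TPM, whereas Alt replicate 2 lies within the range of Ctr for both.

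Several facts of the libraries stand beside the results that follow. The total count was lowest in Alt replicate 1, at 16655697, against 18673575 to 20750857 in the others. The chi-square per degree of freedom between libraries of 1 group was 58.0 for the Alt pair and 18.6 to 25.0 for the other pairs. Longer genes ran high in Alt replicate 1, where the rank correlation between gene length and the difference from the mean of the other libraries was 0.34 over all genes tested, against -0.30 to 0.10 in the other 6. Markers of neurons and glia were detected in every library, and the summed CPM of 10 oligodendrocyte markers was 4101 to 5101 in Ref against 2425 to 3431 in Ctr and 2374 to 2904 in Alt. Fold changes of the receptors in Alt are therefore given with and without Alt replicate 1. A fit without that library leaves 1 Alt library, so that its standard errors, p-values and counts of genes rest on the spread within Ctr and Ref.

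Grm3 and Grm5 were higher in Alt than in Ctr, and the 4 other receptors did not pass the test. CPM (counts scaled to library size, here after TMM scaling) correct for library size but not for gene length and were compared by edgeR's quasi-likelihood test over the 7 libraries. At an unadjusted p of 0.05, 2 of the 6 genes were higher in Alt and 0 lower, where 9.45% of all 17254 genes tested were higher and 10.3% lower. Together, 19.8% of all genes passed in this comparison. After Benjamini-Hochberg adjustment over all genes tested in edgeR, 0 of the 6 genes and 0 of the 17254 passed 0.05. DESeq2's Wald test on the same genes passed 1 of the 6, Grm3, with an adjusted p of 0.0245, where 1123 of all 17254 genes passed. Over the 20 alternatives tried, the adjusted p of Grm3 lay between 0.0012 and 0.735 and that of Grm5 between 0.012 and 0.745.

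Grm3 encodes mGlu3, a receptor for glutamate and for the peptide transmitter N-acetylaspartylglutamate (NAAG). Its CPM was 100.1, 133 and 124 in the Ctr libraries, 121 and 147 in Ref, and 261 and 141 in Alt. Both Alt libraries stood above all 3 Ctr libraries, but Alt replicate 2 was below Ref replicate 2, so that Alt and Ref overlapped. In TPM the Alt libraries had 298 and 144, and Alt replicate 2 then fell among the Ctr values of 110 to 146. The log2 fold change of Alt over Ctr was 0.75 (standard error 0.23, 95% confidence interval 0.25 to 1.26, unadjusted p = 0.00706, adjusted p = 0.133 in edgeR). This corresponds to a level 1.69 times that of Ctr. Without Alt replicate 1 the log2 fold change was 0.24 (standard error 0.19, unadjusted p = 0.225 in edgeR), and the call was lost. With a correction for gene length it was 0.99 (unadjusted p = 0.00142 in edgeR). The exon length of Grm3 is below the median of 4051 bases over all genes tested. The call was also lost with limma on log2(FPKM + 1), at 0.55 (unadjusted p = 0.0502), and on log2(FPKM + 0.1), at 0.56 (unadjusted p = 0.0518).

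Grm5 encodes mGlu5, the group I receptor of forebrain dendrites. Its CPM was 247, 304 and 297 in Ctr, 232 and 258 in Ref, and 451 and 324 in Alt. The Alt libraries lay above every Ctr and Ref library in CPM. In TPM, Alt replicate 2 had 98.6, within the Ctr range of 80.9 to 104 and above both Ref libraries at 77.9 and 80.3. The log2 fold change of Alt over Ctr was 0.46 (standard error 0.17, 95% confidence interval 0.08 to 0.83, unadjusted p = 0.022, adjusted p = 0.18 in edgeR), a level 1.37 times that of Ctr. It was 0.20 without Alt replicate 1 (unadjusted p = 0.261 in edgeR) and 0.18 with the correction for gene length (unadjusted p = 0.17 in edgeR), and neither passed. The call was also lost with library totals as the only scaling, at 0.32, without Ctr replicate 1, at 0.37, and with limma on log2(FPKM + 1) and log2(FPKM + 0.1), at 0.30 and 0.31. Grm5 has the longest exon sequence of the 6 genes.

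Grm2, the presynaptic group II autoreceptor of cortical terminals, had values on the other side of Ctr. Its CPM was 50.8, 55.3 and 53.5 in Ctr, 53.8 and 49.0 in Ref, and 38.2 and 47.6 in Alt. The Alt libraries were below all 5 others. The log2 fold change of -0.31 for Alt over Ctr did not pass (standard error 0.16, 95% confidence interval -0.67 to 0.05, unadjusted p = 0.0849, adjusted p = 0.318 in edgeR). It was -0.44 with library totals as the only scaling (unadjusted p = 0.0276 in edgeR), and that scaling also moved the median of all genes from -0.03 to -0.16. With limma on log2(FPKM + 1) and log2(FPKM + 0.1) it was -0.41 and -0.44 and passed (unadjusted p = 0.0268 and 0.0257). It also passed without Alt replicate 2, at -0.48, and was -0.16 without Alt replicate 1.

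The group III genes gave values close to Ctr in Alt. Grm7, whose product sits in the active zone of the terminal and needs high glutamate to be activated, had a CPM of 44.0, 43.2 and 52.3 in Ctr, 36.8 and 42.8 in Ref, and 41.9 and 44.6 in Alt. Its log2 fold change of Alt over Ctr was -0.10 with a 95% confidence interval of -0.48 to 0.27. Grm8 had a CPM of 22.6, 24.8 and 22.4 in Ctr, 20.4 and 18.05 in Ref, and 26.0 and 23.3 in Alt, and its log2 fold change was 0.08 with an interval of -0.33 to 0.50. Grm4 varied most within Ctr, with a CPM of 21.3, 11.2 and 18.9, against 22.5 and 18.1 in Ref and 17.0 and 16.5 in Alt. Its log2 fold change was -0.03 with an interval of -0.62 to 0.56. The Alt libraries overlapped Ctr for all 3 group III genes. Leaving out Alt replicate 1 gave -0.0590 for Grm7, 0.00432 for Grm8 and -0.0579 for Grm4. The intervals of Grm4 and Grm8 include the log2 fold change of Grm5, 0.46, and that of Grm7 ends below it.

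Counted by overlap of CPM, 3 of the 6 genes (Grm2, Grm3 and Grm5) had Alt libraries apart from all Ctr libraries, where 35% of all genes tested did. Of these 3, Grm3 and Grm5 lay above Ctr, as 16.8% of all genes did, and Grm2 below it, as 18.1% did.

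**Figure D2:**
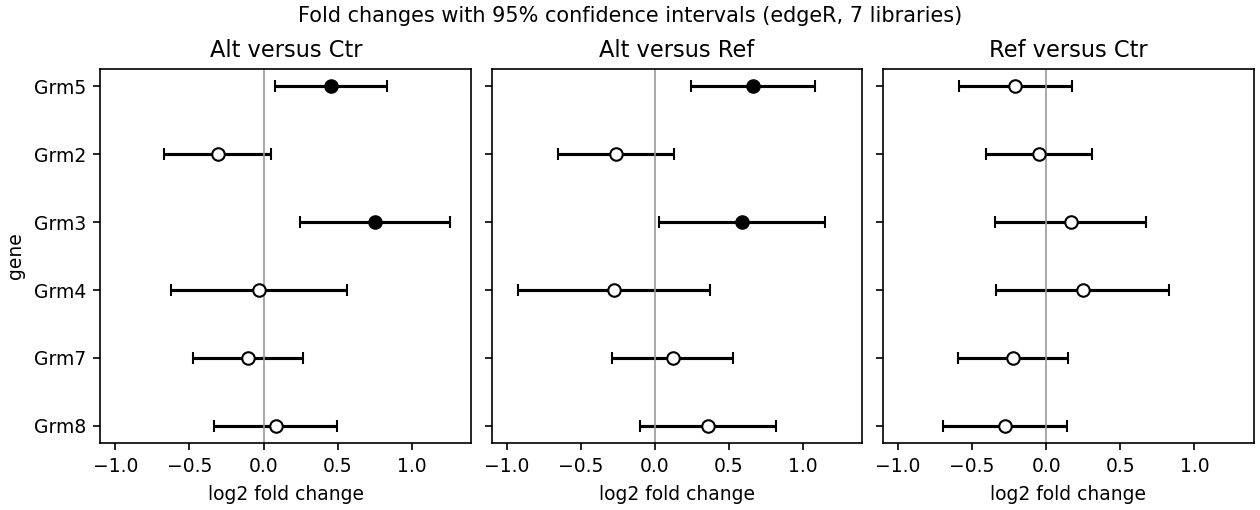
Log2 fold changes of the 6 receptor genes for the 3 comparisons, with 95% confidence intervals from edgeR's quasi-likelihood test over 7 libraries and filled points at an unadjusted p below 0.05. The filled points are Grm5 and Grm3 for Alt versus Ctr and for Alt versus Ref, and no point is filled for Ref versus Ctr.

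Between the alleles, Grm5 and Grm3 were higher in Alt than in Ref. In Alt versus Ref 2 of the 6 genes, Grm3 and Grm5, were higher at an unadjusted p of 0.05 and 0 lower, where 15.5% of all genes tested passed, 6.71% higher and 8.83% lower. In edgeR 0 of the 6 passed an adjusted p of 0.05, as against 1 of all 17254 genes tested (0.0058%). In DESeq2 1 of the 6 did, Grm5, where 449 of all 17254 genes passed. This comparison uses the same Alt libraries as Alt versus Ctr. Grm5 had a log2 fold change of 0.66 (standard error 0.19, 95% confidence interval 0.24 to 1.08, unadjusted p = 0.00492, adjusted p = 0.236 in edgeR), a level 1.58 times that of Ref. It was 0.42 without Alt replicate 1, a fit with 1 Alt library that takes its spread from the other groups. It passed the unadjusted threshold under all 20 alternatives tried, though fits without an Alt or Ref library leave 1 library there. Its adjusted p under these alternatives lay between 0.00542 and 0.965 in the fits across all genes, with 0.025 in DESeq2. Grm3 had 0.59 (standard error 0.26, 95% confidence interval 0.03 to 1.15, unadjusted p = 0.0418, adjusted p = 0.31 in edgeR), which became 0.09 without Alt replicate 1 (unadjusted p = 0.678 in edgeR). The call of Grm3 for Alt versus Ref was also lost without Ctr replicate 2, Ctr replicate 3 or Ref replicate 1, at 0.59, 0.59 and 0.44, with library totals as the only scaling, at 0.48, with only the 2 groups in the fit, at 0.60, and with limma on log2(FPKM + 1) and log2(FPKM + 0.1), at 0.42 for both. Under the correction for gene length Grm3 had 0.89 and Grm5 0.45, and both passed.

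Of the genes that did not pass, Grm8 had a log2 fold change of 0.36 for Alt over Ref (95% confidence interval -0.10 to 0.81), Grm7 0.12 (-0.29 to 0.53), Grm2 -0.26 (-0.65 to 0.13) and Grm4 -0.28 (-0.93 to 0.37). These values became 0.29, 0.18, -0.0997 and -0.29 when Alt replicate 1 was left out. The Alt libraries were apart from both Ref libraries in 4 of the 6 genes (Grm2, Grm4, Grm5 and Grm8), where 47.7% of all genes tested were. Grm5 and Grm8 lay above Ref, as 21.6% of all genes did, and Grm2 and Grm4 below it, as 26.1% did. Beside these values, 8 of 10 oligodendrocyte markers were lower in Alt than in Ref and 0 higher, with a median log2 fold change of -0.85, and Mbp, at -1.29, had an adjusted p of 0.0481 in edgeR. Also lower were 2 of 8 astrocyte, 2 of 6 inhibitory neuron, 2 of 7 microglia and 1 of 5 oligodendrocyte precursor markers, against 8.83% of all genes. Higher were 1 of 6 excitatory neuron and 1 of 6 endothelial and mural markers, against 6.71%. The part of these markers in the values of the receptors was not tested.

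For the C allele, 0 of the 6 genes passed an unadjusted p of 0.05 in Ref versus Ctr in edgeR, and 0 did so in DESeq2. Over all genes 3.14% passed, 2.19% higher and 0.945% lower. The widest interval was that of Grm4, at a log2 fold change of 0.25 (95% confidence interval -0.34 to 0.83), followed by Grm3 at 0.17 (-0.34 to 0.68). Grm5 had -0.21 (-0.59 to 0.18), Grm7 -0.23 (-0.60 to 0.15), Grm8 -0.28 (-0.69 to 0.14) and Grm2 -0.05 (-0.40 to 0.31). Grm7 and Grm8 had both Ref libraries below every Ctr library, 2 of 6 genes, where 22.9% of all genes tested did not overlap and 10.5% were lower in this way. The oligodendrocyte markers, with 8 of 10 higher in Ref at an unadjusted p of 0.05 and a median log2 fold change of 0.78, moved in this comparison. Also higher were 3 of 8 astrocyte, 2 of 5 oligodendrocyte precursor and 2 of 6 endothelial and mural markers, and 2 of 6 excitatory neuron markers were lower. Of the inhibitory neuron and microglia markers 0 moved. The part of these cell types in the values of the receptors in Ref was not tested.

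**Figure D3:**
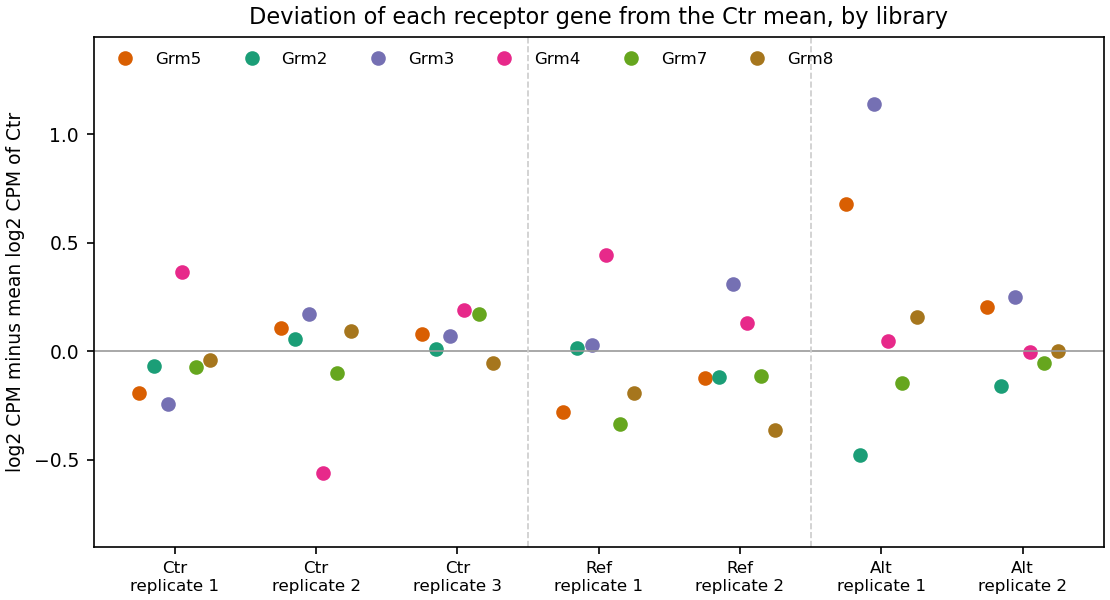
Difference of log2 CPM of each receptor gene from its mean in Ctr, by library, with dashed lines between the groups. Grm3 at 1.14 and Grm5 at 0.68 stand highest within Alt replicate 1 and Grm2 at -0.48 lowest there, and Alt replicate 2 lies between -0.16 and 0.25 for the 6 genes.

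The study ordered its groups as Ctr, Ref and Alt. An exact two-sided permutation test of this order over the 210 arrangements of the 7 libraries, with scores of 0, 1 and 2 and with 0.00476 as the smallest p it allows, gave p = 0.019 for Grm2 with a slope of -0.15 log2 units per step. For Grm3 the exact permutation test gave p = 0.0429 with a slope of 0.34. Grm5 did not follow the order, since its Ref libraries lay at the low end (slope 0.20, exact permutation p = 0.205). Grm7, Grm8 and Grm4 had an exact permutation p of 0.438, 0.805 and 0.89. These are 6 unadjusted tests. The slopes of Grm2 and Grm3 were -0.07 and 0.13 without Alt replicate 1 (exact permutation p = 0.117 and 0.3). With each library left out in turn, the exact permutation p lay between 0.0167 and 0.117 for Grm2, where it fell below 0.05 without Ctr replicate 1 or Ref replicate 1, and between 0.0333 and 0.3 for Grm3, where it did so without Ref replicate 1. With a numeric score in edgeR the slope of Grm2 was -0.15 (unadjusted p = 0.0983) and that of Grm3 0.37 (unadjusted p = 0.0076).

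Ratios between receptors within a library do not depend on library scaling. The TPM ratio of Grm3 to Grm2, the group II pair, was 3.16, 3.87 and 3.72 in Ctr, 3.60 and 4.80 in Ref, and 10.97 and 4.75 in Alt. Alt replicate 2 was thus above Ctr but below Ref replicate 2, while Alt replicate 1 was far above all others. The ratio of Grm5 to Grm7 was 3.22, 4.04 and 3.27 in Ctr, 3.62 and 3.46 in Ref, and 6.19 and 4.18 in Alt, with both Alt libraries the highest. The exons of Grm5 are longer than those of Grm7, and the Alt libraries also had the highest correlations with gene length, 0.34 and 0.10, whose part in this ratio was not tested. The ratio of Grm3 to Grm5 was 1.36 to 1.47 in Ctr, 1.75 and 1.91 in Ref, and 1.94 and 1.46 in Alt. Here both Ref libraries were above Ctr, and the Alt libraries lay apart from each other.

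Summed over the 6 genes the TPM was 271 to 339 in Ctr, 295 and 303 in Ref, and 522 and 312 in Alt. Group II took 53.6% to 57.1% of this sum in Ctr, 59.3% and 60.9% in Ref, and 62.3% and 55.8% in Alt. Group I, that is Grm5, took 29.9% to 30.8% in Ctr, 26.5% and 26.4% in Ref, and 29.3% and 31.6% in Alt. Group III took 12.2% to 16.5% in Ctr, 14.2% and 12.7% in Ref, and 8.39% and 12.7% in Alt. The share of group III was lowest in Alt replicate 1, and Alt replicate 2 lay within the range of Ctr for all 3 groups except group I, where it was the highest.

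**Figure D4:**
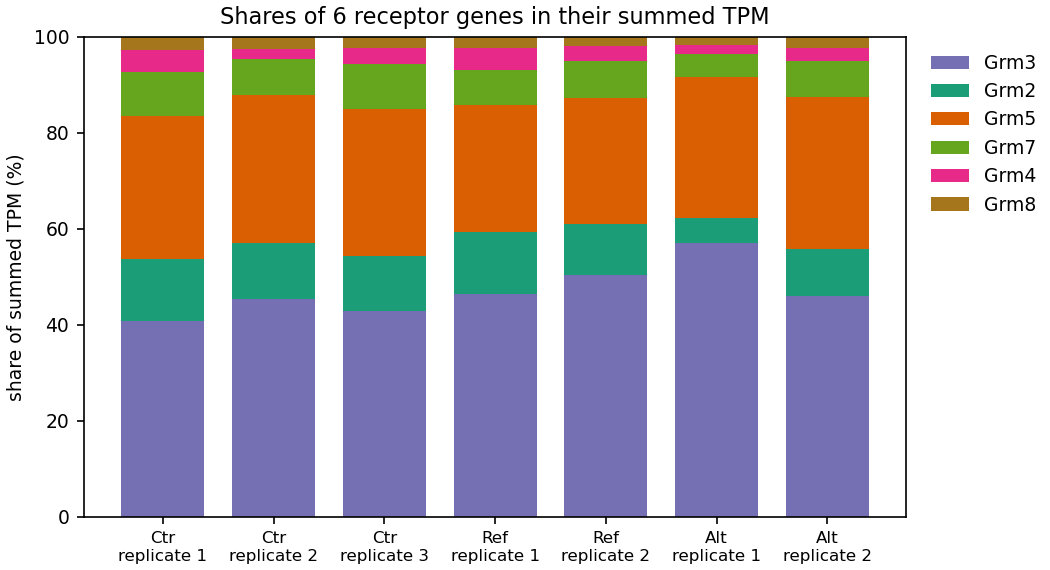
Share of each receptor gene in the summed TPM of the 6 genes, 1 bar per library, in percent. Grm3 takes 57.1% in Alt replicate 1 and 40.7% to 50.4% in the other libraries, and the upper 3 segments, Grm7, Grm4 and Grm8, are thinnest in Alt replicate 1 with 8.39% together.

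Genes that act with these receptors were followed through 4 lists. Among 16 coupling proteins and scaffolds of group I receptors, 9 were higher in Alt than in Ctr at an unadjusted p of 0.05 and 0 lower, where 9.45% of all genes tested were higher and 10.3% lower, with a median log2 fold change of 0.43 against -0.03 over all genes tested. Prkcb, a protein kinase C isoform, had 536, 572 and 679 CPM in Ctr and 1145 and 827 in Alt (log2 fold change 0.73, unadjusted p = 0.00147, adjusted p = 0.12 in edgeR). Shank1, a postsynaptic scaffold, had 498, 486 and 759 in Ctr and 1564 and 825 in Alt (1.04, unadjusted p = 0.00158 in edgeR). Homer2, which binds the tail of mGlu5, was also higher, at 0.70 (unadjusted p = 0.00422 in edgeR), and Homer1 had -0.02 (unadjusted p = 0.898 in edgeR). The genes of this list had a median length of 8981 bases, and 4 were higher and 1 lower, Homer1, with the correction for gene length, under which 1259 of all 17254 genes were higher and 16.4% passed in either direction. Itpr1, Prkcb and Shank1, 3 genes, were higher without Alt replicate 1, where 680 of all 18483 genes tested were. In Alt versus Ref 7 of the 16 were higher and 0 lower, where 6.71% and 8.83% of all genes were. In Ref versus Ctr 0 were higher and 1 lower, where 2.19% and 0.945% of all genes were.

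Among 22 coupling proteins and effectors of group II and III receptors, 6 were higher and 4 lower in Alt, compared with Ctr, against 9.45% and 10.3% of all genes, with a median log2 fold change of 0.10. The adenylyl cyclases Adcy9 and Adcy1, enzymes that make cyclic AMP, had the smallest unadjusted p in the list. The 4 lower genes were Adcy8, also an adenylyl cyclase, at -0.61, the G protein subunits Gnb2 at -0.69 and Gng3 at -0.97, and the potassium channel subunit Kcnj9 at -0.61. Adcy9 had 47.5, 40.5 and 53.9 CPM in Ctr and 135 and 75.1 in Alt (log2 fold change 1.15, unadjusted p = 0.000246 in edgeR), and Adcy1 had 800, 984 and 1114 in Ctr and 2432 and 1257 in Alt (0.93, unadjusted p = 0.00217 in edgeR). Both were still higher without Alt replicate 1, where 2 were higher and 0 lower in the list, against 680 of 18483 genes higher and 8.14% passing in either direction. Elfn1 and Elfn2, adhesion proteins that bind group III receptors across the synapse, had 0.13 and 0.22 and did not pass. In Alt versus Ref 4 were higher and 2 lower, against the same 6.71% and 8.83% of all genes. In Ref versus Ctr 0 moved in either direction, where 3.14% of all genes did.

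Among 12 genes of receptor desensitization and trafficking, 1 was higher and 3 were lower in Alt, compared with Ctr, against 9.45% and 10.3% of all genes. In Alt versus Ref 0 were higher and 1 lower, against 6.71% and 8.83% of all genes. In Ref versus Ctr 0 moved in edgeR, where 3.14% of all genes did. Calm2, 1 of the calmodulin genes, had 1148, 852 and 901 CPM in Ctr and 415 and 739 in Alt (log2 fold change -0.75, unadjusted p = 0.00663 in edgeR). Cyth2, an exchange factor for small GTPases, had 39.9, 22.7 and 29.6 in Ctr and 11.9 and 22.0 in Alt (-0.86, unadjusted p = 0.0156 in edgeR). In edgeR 0 of the 12 moved in either direction without Alt replicate 1.

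Among 15 genes of glutamate and NAAG supply and removal, 4 were higher and 0 lower in Alt, compared with Ctr, against 9.45% and 10.3% of all genes. In Alt versus Ref 2 were higher and 1 lower (6.71% and 8.83% of all genes), and in Ref versus Ctr 1 was higher and 0 lower (2.19% and 0.945%). Glul, the glutamine synthetase of astrocytes, was the gene higher in Ref than in Ctr, at a log2 fold change of 0.45, and the gene lower in Alt than in Ref, at -0.42. Slc1a2, the main glutamate transporter of astrocytes, had 3484, 4827 and 4476 CPM in Ctr, 4894 and 6469 in Ref, and 9528 and 5964 in Alt (log2 fold change of Alt over Ctr 0.86, unadjusted p = 0.0017 in edgeR). Slc7a11, the cystine and glutamate exchanger, had 118, 153 and 148 in Ctr, 119 and 150 in Ref, and 238 and 209 in Alt (0.68, unadjusted p = 0.00186 in edgeR). For Slc7a11 both Alt libraries stood apart from all 5 others. Slc1a2, Slc38a1 and Slc7a11, 3 genes, were higher without Alt replicate 1, again against 680 of 18483. The NAAG synthetase genes Rimkla and Rimklb had 0.08 and 0.01 and did not pass.

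Markers of astrocytes, the glia that also make Grm3 and Grm5, stood beside these values as follows, and counts of markers in Alt against Ctr are read against 9.45% of all genes higher and 10.3% lower. Of 8 astrocyte markers 0 were higher and 2 lower in Alt, compared with Ctr, with a median log2 fold change of -0.01 and a summed CPM of 1889 to 2204 in Alt against 1983 to 2256 in Ctr and 2522 to 2560 in Ref. Gfap, an astrocyte filament protein, had 151, 212 and 116 CPM in Ctr and 136 and 159 in Alt. Of 6 excitatory neuron markers 2 were higher in Alt, Slc17a7 and Camk2a at 0.32 each, and 1 lower, Neurod6 at -0.65. Slc17a7, the vesicular glutamate transporter of cortical neurons, had 1309, 1207 and 1127 CPM in Ctr and 1560 and 1468 in Alt. The summed CPM of the excitatory markers was 6262 and 6542 in Alt, above the 5185 to 5981 of Ctr and the 6096 and 6121 of Ref. Camk2a held much of this sum, with 3926 and 3845 CPM in Alt against 2882 to 3423 in Ctr. The median log2 fold change of the excitatory markers was 0.02, and Nrgn, at -0.56, did not pass. Of 6 inhibitory neuron markers 0 were higher and 3 lower in Alt (Pvalb, Sst and Vip), while Gad1 at -0.35, Gad2 at 0.16 and Slc32a1 at -0.01 did not pass. The summed CPM of these 6 was 247 and 240 in Alt, below the 277 to 350 of Ctr and the 258 and 270 of Ref. In Ctr replicate 2, which had the highest sum, Gad1 had 163 CPM, against 103 and 86.6 in the other Ctr libraries. Mbp, a myelin protein of oligodendrocytes, had 802, 820 and 736 CPM in Ctr, 1332 and 1381 in Ref, and 523 and 584 in Alt. Of 7 microglia markers 1 was higher in Alt, Cx3cr1, with 65.2 to 80.9 CPM in Ctr and 87.9 and 94.1 in Alt, and 2 were lower, C1qa at a log2 fold change of -1.09 and C1qb at -0.81, and their summed CPM was 358 to 376 in Alt within the 338 to 395 of Ctr. Of 6 endothelial and mural markers 2 were higher, Vwf at 1.11 and Flt1 at 0.56, and 0 lower, and the summed CPM was 657 and 660 in Alt, above the 416 to 531 of Ctr and the 519 and 632 of Ref. Of 5 oligodendrocyte precursor markers 2 were higher, Cspg4 at 1.04 and Pdgfra at 0.43, and 0 lower, with a summed CPM of 324 to 371 in Alt against 259 to 344 in Ctr. Of 10 oligodendrocyte markers 0 were higher and 2 lower in Alt (Mbp and Mag). The part of these cell types in the values of the receptors was not tested. In whole tissue, fewer cells of a type and less RNA per cell cannot be told apart.

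Across the 7 libraries the log2 CPM of Grm3 and Grm5 ran in parallel (Pearson r = 0.88), and Grm2 ran opposite to both (r = -0.88 with Grm3 and -0.80 with Grm5). These correlations are descriptions over 7 libraries, and Alt replicate 1 is at the end of the range of all 3 genes. Among the 13573 protein-coding genes ranked, the genes most like Grm3 in this respect were Cacna1i, Sp4 and Igsf9b (r = 0.995 for each), and 5.37% of the 13573 had an r above 0.9 with it. The genes most like Grm5 were Appl1, Marchf6 and Ubxn2b (r = 0.998, 0.997 and 0.994). Those most like Grm2 were Mrpl43, Sirt7 and Pus7l (r = 0.99, 0.99 and 0.98). The nearest genes were Obsl1, Mterf4 and Tmem91 for Grm4 (r = 0.98, 0.98 and 0.97), Scn7a, Kit and Eme2 for Grm8 (r = 0.99, 0.98 and 0.97), and Dcaf6, Cdc25a and Mzt1 for Grm7 (r = 0.91, 0.90 and 0.89).

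**Figure D5:**
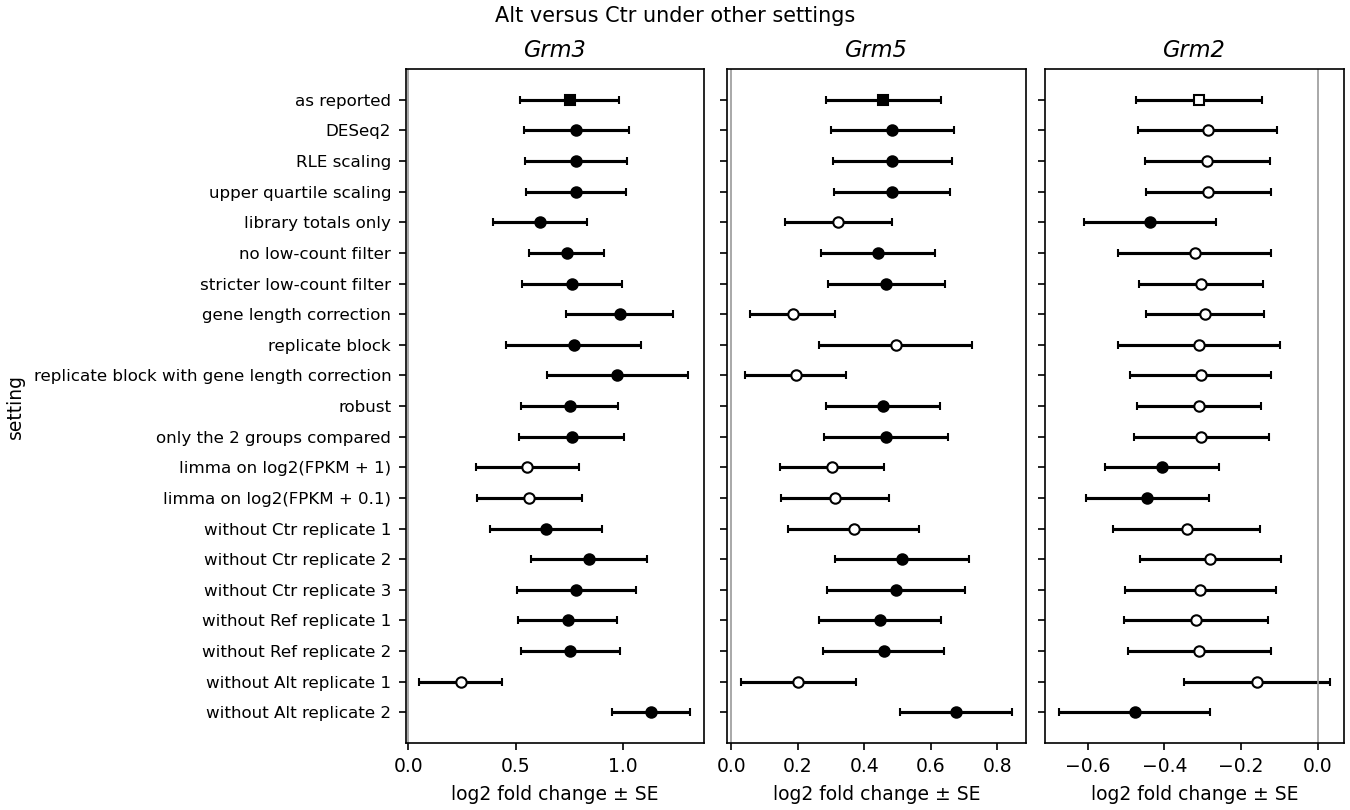
Log2 fold change of Alt over Ctr with its standard error for Grm3, Grm5 and Grm2, as reported and under 20 other settings, with filled points at an unadjusted p below 0.05. Grm3 lies between 0.24 and 1.13 and Grm5 between 0.18 and 0.68, both lowest or close to lowest without Alt replicate 1, and Grm2 lies between -0.48 and -0.16.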

How the data were processed

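The authors deposited 1 table with raw counts of reads per gene for 7 PFC libraries (poly(A)-enriched RNA, 16655697 to 20750857 counts per library), together with TPM and FPKM values, which the authors scaled by gene length and library. The submitters' processing notes name STAR and featureCounts, without versions, and the build hg19, a human build that mouse coordinates cannot follow, and the build and annotation used are otherwise not given in the sources used here. Stranded counting is not stated. Groups and replicate numbers come from the sample labels.

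Tests on the counts used edgeR 4.0.16 under R 4.3.3 (filterByExpr by group, TMM, glmQLFit, glmQLFTest, group means over all 7 libraries, 17254 genes kept), DESeq2 1.42.0 and limma 3.58.1. In edgeR and limma, p-values were adjusted by Benjamini-Hochberg over all genes tested. DESeq2 kept its default filter on mean count before that adjustment, so that its adjusted p-values can rest on fewer genes. Log2 CPM used a prior count of 2. The length correction removed a loess curve of span 0.3 per library. The scripts were tested on simulated data. Members and gene lists were chosen with earlier results of these data known. Named beside the members were the 2 list genes with the smallest p for Alt versus Ctr in each of 4 pathway lists, and 4 defining markers. The 3 genes most correlated with each member were also named, with sex-linked genes and those of a whole autosome left out of the ranking. Homer1, Homer2, Elfn1, Elfn2, Rimkla, Rimklb and list genes named in short counts were added after their values were seen. The trend used every arrangement of the libraries.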

Additional observations from a re-analysis of the deposited data

How the results depend on the processing

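For Alt versus Ctr, the 2 genes called at an unadjusted p of 0.05 (Grm3 and Grm5) became 1 with the gene length correction, the replicate block and both together (Grm3), and 1 with limma on log2(FPKM + 1) and on log2(FPKM + 0.1), where it was Grm2. Of all genes 16.4%, 12.6%, 12.4%, 21.2% and 21.3% passed in these fits, against 19.8%. For Alt versus Ref, 2 became 1 (Grm5) with library totals only, the replicate block, only the 2 groups compared, and limma with either pseudocount (of all genes 16%, 9.01%, 11.8%, 15.8% and 15.7%, against 15.5%). An adjusted p of 0.05 was passed by 1 gene in both comparisons with DESeq2 and without the low-count filter, Grm3 for Alt versus Ctr (0.0245 and 0.00144) and Grm5 for Alt versus Ref (0.025 and 0.0306). Over all genes 1123 and 1484 then passed for Alt versus Ctr, and 449 and 850 for Alt versus Ref. The causes were not tested.

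Leaving out 1 library gave 0 to 3 genes at an unadjusted and 0 to 2 at an adjusted p for Alt versus Ctr, and 1 to 2 and 0 to 2 for Alt versus Ref. At an unadjusted p, 0 members passed for Alt versus Ctr without Alt replicate 1, where 8.14% of all genes did, and 1 without Ctr replicate 1, where 11.8% did, against 19.8% with all libraries. For Alt versus Ref 1 passed without Alt replicate 1, Ctr replicate 2, Ctr replicate 3 or Ref replicate 1, where 6.76%, 15.1%, 12.7% and 4.19% of all genes did, against 15.5%. Without Alt replicate 2, Grm2, Grm3 and Grm5 passed an unadjusted p for Alt versus Ctr, and 2 genes (Grm3 and Grm5) passed an adjusted p in both comparisons, with 1 Alt library assumed to vary like the other groups. Of all 18848 genes tested then, 33.2% passed an unadjusted p for Alt versus Ctr and 28.9% for Alt versus Ref, and 3451 and 2708 an adjusted p. Slopes over the order ran from -0.20 to -0.0734 for Grm2, 0.13 to 0.49 for Grm3, -0.13 to 0.10 for Grm4 and -0.0540 to 0.0636 for Grm8. The slope of Grm2 was -0.15 with a numeric score in edgeR, and that of Grm3 0.27 on log2(FPKM + 1), both no longer past 0.05. On log2(FPKM + 1) the slopes of Grm4 and Grm8 changed sign, to -0.0322 and -0.0289.

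The fold changes that changed sign were, as reported in edgeR, 0.08 for Grm8 and -0.03 for Grm4 in Alt versus Ctr, and -0.05 for Grm2 in Ref versus Ctr. For Alt versus Ctr, Grm8 had -0.0501 with library totals only, -0.17 with the length correction, -0.22 with block and length correction, -0.0353 and -0.0481 with limma on log2(FPKM + 1) and log2(FPKM + 0.1), and Grm4 had 0.11 with the replicate block, 0.0317 with block and length correction, and -0.26 to 0.16 with 1 library left out. Grm2 for Ref versus Ctr lay between -0.11 and 0.00965 with 1 library left out. Of 360 fold changes recomputed, 211 under another choice and 115 with 1 library left out kept their direction and side of the threshold.

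The numbers share no source in the labels, and same-numbered libraries did not deviate together (correlations of -0.10 to 0.07), so that the replicate block is not a paired analysis. Under the replicate block Grm5 had 0.49 for Alt versus Ctr (unadjusted p = 0.0629 in edgeR) and Grm3 0.58 for Alt versus Ref (unadjusted p = 0.103 in edgeR).

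For the pathway lists, 2 alternatives were chosen after seeing the data. Without Alt replicate 1 the counts of higher genes became 3 for group I coupling, 2 for group II and III coupling and 0 for desensitization, and the counts of lower genes 0 and 0 for the last pair, where 8.14% of all genes passed. With the length correction they became 4 higher and 1 lower for group I coupling, 0 higher for desensitization, and 1 lower for glutamate supply (Slc1a1), where 16.4% of all genes passed. The order of the 6 levels in Ctr was the same without each Ctr library. It was also the same in FPKM, which within a library orders genes as TPM does and so is no separate check. At least 227 reads lay behind every value, and the precision is limited by the 2 Ref and 2 Alt libraries.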
